A study of Mus musculus with 217 samples.

Results

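The transcripts of 10 cyclic nucleotide phosphodiesterase genes, *Pde1a*, *Pde1b*, *Pde1c*, *Pde2a*, *Pde4b*, *Pde4c*, *Pde7b*, *Pde8b*, *Pde9a* and *Pde10a*, were followed through the striatum and cortex of LacQ140 mice, an inducible model of Huntington disease. The genes were chosen as a named list, by a rule that uses no measured value but with earlier results of these data known, and all 10 were found among the 54532 genes of both count tables, where 24 genes of this family were counted in all. All 10 had counts in every fit and were tested in each. In the striatum of 12-month-old LacQ140 mice, *Pde10a*, *Pde1b*, *Pde7b*, *Pde2a* and *Pde8b* fell, and *Pde1a* rose by a call that was lost without any 1 of 8 libraries; 9.44% of all genes tested were called there. In the cortex, 0 of the 10 were called by edgeR or DESeq2 at 6 or 12 months (2 at each age with an unadjusted p under 0.05), where 0.881% and 0.0899% of all genes were called. By edgeR 3578 of 35987 and 2995 of 34493 genes tested had an unadjusted p under 0.05 there.

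RNA of 217 tissue samples from 110 C57BL/6 mice was sequenced, and 107 mice gave both tissues. LacQ140 mice were Hdh(LacO-140Q/+):beta-actin-LacIR tg, with an expanded CAG repeat and lac operators in 1 allele of *Htt* (*Hdh*), and WT mice were Hdh(LacO-+/+):beta-actin-LacIR tg. Every mouse, the wild-type controls included, carried the lac repressor transgene under the ubiquitous β-actin promoter, so that m*Htt* was repressed unless isopropyl β-D-1-thiogalactopyranoside (IPTG) was given. LacQ140 mice had IPTG from embryonic day 5 up to sampling, LacQ140_A mice never had it, and it was withdrawn at 2 months of age in LacQ140_2M mice and at 8 months in LacQ140_8M mice, a group sampled only at 12 months. The controls were WT mice without IPTG, called MOCK in the titles and given no treatment in the labels' treatment field, and WT + IPTG mice. Each group had 10 mice (5 female and 5 male) in each tissue at 6 and at 12 months, except 9 (4 female and 5 male) in the 12-month striatum of WT, LacQ140 and LacQ140_8M mice. LacQ140 mice were on IPTG when sampled and the lowered groups were not, so that a difference between them holds the drug as well as m*Htt*; the effect of IPTG in wild-type mice is given below. The line came from embryonic stem cell clones, and the counts do not separate the expanded from the normal *Htt* allele.

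Phosphodiesterases end cyclic nucleotide signals by hydrolysing cAMP and cGMP to 5′-AMP and 5′-GMP. In the striatum, dopamine D1 receptors and a subtype of adenosine receptor raise cAMP in projection neurons through adenylyl cyclase 5, the D2 receptor lowers it, and nitric oxide from interneurons raises cGMP; the enzymes studied here set how far and how long these signals last. PDE1 enzymes (*Pde1a*, *Pde1b*, *Pde1c*) are activated by calcium and calmodulin and hydrolyse both nucleotides, as do PDE2A, which cGMP stimulates, and PDE10A, which is known for its abundance in striatal projection neurons. PDE4 (*Pde4b*, *Pde4c*), PDE7B and PDE8B are cAMP-specific enzymes, and PDE9A is specific for cGMP.

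The members lay on 9 chromosomes of mouse build GRCm38. *Pde10a* (ENSMUSG00000023868) was annotated at chr17:8525372-8986648 on the plus strand, *Pde1b* (ENSMUSG00000022489) at chr15:103503034-103530052 on the plus strand, *Pde2a* (ENSMUSG00000110195) at chr7:101421691-101512827 on the plus strand and *Pde7b* (ENSMUSG00000019990) at chr10:20398004-20725078 on the minus strand. These 4 genes were the members whose LacQ140 and WT + IPTG libraries did not overlap in the 12-month striatum, and the bases upstream of an annotated start of each are shown for that reason, from RefSeq on GRCm38.p6. Each is written 5′ to 3′ on the strand of the gene. Capitals mark the GC box, the letters GGGCGG or their reverse complement CCGCCC, which the factor Sp1 is known to bind; bases inside an annotated exon were left out, 52 next to the start of *Pde10a* and 142 next to that of *Pde7b*.

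*Pde10a*, chr17:8801495-8801692, plus strand: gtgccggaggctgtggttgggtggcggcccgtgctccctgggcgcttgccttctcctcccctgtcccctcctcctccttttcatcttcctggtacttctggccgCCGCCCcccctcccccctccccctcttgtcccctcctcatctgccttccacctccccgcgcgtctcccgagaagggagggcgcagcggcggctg

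*Pde1b*, chr15:103502784-103503033, plus strand: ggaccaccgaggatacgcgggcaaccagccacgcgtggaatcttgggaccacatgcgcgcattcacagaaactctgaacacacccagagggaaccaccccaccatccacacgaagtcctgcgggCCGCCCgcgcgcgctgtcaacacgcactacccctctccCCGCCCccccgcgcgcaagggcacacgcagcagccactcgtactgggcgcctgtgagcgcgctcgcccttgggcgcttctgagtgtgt

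*Pde2a*, chr7:101451002-101451251, plus strand: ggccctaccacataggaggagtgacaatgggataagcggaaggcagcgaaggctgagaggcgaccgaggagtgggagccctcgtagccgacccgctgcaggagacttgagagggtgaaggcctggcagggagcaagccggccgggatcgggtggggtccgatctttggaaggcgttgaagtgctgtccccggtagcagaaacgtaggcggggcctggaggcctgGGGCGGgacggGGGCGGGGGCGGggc

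*Pde7b*, chr10:20548471-20548578, minus strand: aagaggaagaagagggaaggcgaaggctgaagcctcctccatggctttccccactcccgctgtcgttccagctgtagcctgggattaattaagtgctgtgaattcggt

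The *Pde1b* stretch held 2 GC boxes, that of *Pde2a* 3, that of *Pde10a* 1 and that of *Pde7b* none. For *Pde10a*, *Pde1b* and *Pde2a* other starts were also annotated, upstream of which no GC box was found. Over the 28 starts of the 9 members that the table held (*Pde9a* had none), the 250 bases upstream had a GC box at 5, against 32.7% of the 32817 starts of all genes. Counted by gene, 4 of 9 members had a GC box at any start, against 35.3% of 26994 genes, and some starts of a gene overlap. The cAMP response element TGACGTCA, to which CREB is known to bind, was at 0 of 28 starts and at 1.55% of all; its core TGACG was at 2 of 28 (1 start each of *Pde1a*, with its first base at -166 from the start, and *Pde4b*, at -34), against 17.7%, or 2 of 9 members against 19.8% of genes. The letters of the AP-1 site, TGANTCA, were at 1 of 28, a start of *Pde1c*, against 6.75%, or 1 of 9 members against 7.82% of genes. Both strands were searched, and the full element contains that core. Such matches describe these letters and not binding.

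Summed counts per library lay between 33292057 and 68038831, and no pair of libraries within a group agreed within sampling noise. The labels give 1 batch for each age, without saying what a batch shared, and age and batch cannot be told apart. *Htt*, counted over both alleles, was lower in lowered groups than in WT mice in the striatum at 6 months (log2 fold change -0.40 for LacQ140_A, adjusted p = 0.000233 by edgeR, and -0.39 for LacQ140_2M, adjusted p = 0.000286). Against LacQ140 mice its striatal change was -0.21 and -0.20 at 6 months, and -0.25, -0.15 and -0.0012 at 12 months for LacQ140_A, LacQ140_2M and LacQ140_8M, and none of these was called, although LacQ140_A at 12 months missed only the change of 20% that a call requires beside an adjusted p under 0.05 (adjusted p = 0.0490). In the cortex the change of *Htt* was -0.20 and -0.29 at 6 months and -0.49, -0.43 and -0.41 at 12 months, in the same order. None of the cortical changes was called. In the 12-month striatum it had 146 ± 11.2 CPM (SD, n = 10) in WT + IPTG, 111 ± 10.9 CPM (n = 9) in LacQ140 and 93.4 ± 15.9 CPM (n = 10) in LacQ140_A mice, and LacQ140 was lower than WT + IPTG by a log2 difference of -0.40 (adjusted p = 9.03e-06). The striatal samples held all 10 markers of striatal projection neurons, summing to between 6013 and 9027 CPM (a gene's counts scaled to the effective size of its library) in 6-month WT + IPTG mice and between 404 and 667 CPM in their cortex, where the 8 markers of cortical projection neurons summed to between 1367 and 1832 CPM. Of 107 striatal libraries, 6 at 6 months and 8 at 12 months held more than 100 CPM of summed cortical projection neuron markers, and results were recomputed without them, a choice made after the data were seen.

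Per kilobase of exon, the scale on which genes can be compared, *Pde1b*, *Pde2a* and *Pde10a* led the members in the striatum of WT + IPTG mice at both ages. At 6 months, their levels were 247.99 ± 29.7, 111 ± 14.0 and 88.2 ± 11.5 CPM per kilobase (mean ± SD, n = 10). *Pde1b* stood above every library of *Pde2a*, and *Pde2a* was higher than *Pde10a* in 10 of 10 libraries although their ranges overlapped. *Pde8b* (19.6 ± 1.962), *Pde4b* (15.5 ± 0.664) and *Pde7b* (14.5 ± 1.75) followed, of which *Pde4b* and *Pde7b* did not differ beyond their spread (higher in 6 of 10 libraries). *Pde1a* (6.31 ± 1.24) and *Pde9a* (5.27 ± 0.645) overlapped likewise, and *Pde1c* (1.41 ± 0.137) and *Pde4c* (0.510 ± 0.0901) were lowest. At 12 months the order differed at 1 place, with *Pde7b* (18.5 ± 1.56) above *Pde4b* (14.5 ± 0.994) in 10 of 10 libraries. Dividing by the longest transcript in place of all exons kept the first 3 ranks, changed the order of *Pde7b*, *Pde4b* and *Pde8b*, and put *Pde9a* just above *Pde1a*.

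*Pde1b* made up 44.7% ± 1.45 (SD, n = 10) of the CPM per kilobase of all 24 phosphodiesterase genes in the 6-month striatum of WT + IPTG mice and *Pde10a* 15.9% ± 0.879. The cortex had another order: *Pde2a* was first at 76.3 ± 2.78 CPM per kilobase, 36.9% ± 1.44 of the family, ahead of *Pde1a* (27.0 ± 2.47) and *Pde1b* (26.4 ± 3.17), which did not differ beyond their spread. *Pde10a* stood at 4.75 ± 1.34 there, close to *Pde9a* (4.45 ± 0.419).

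**Figure D1:**
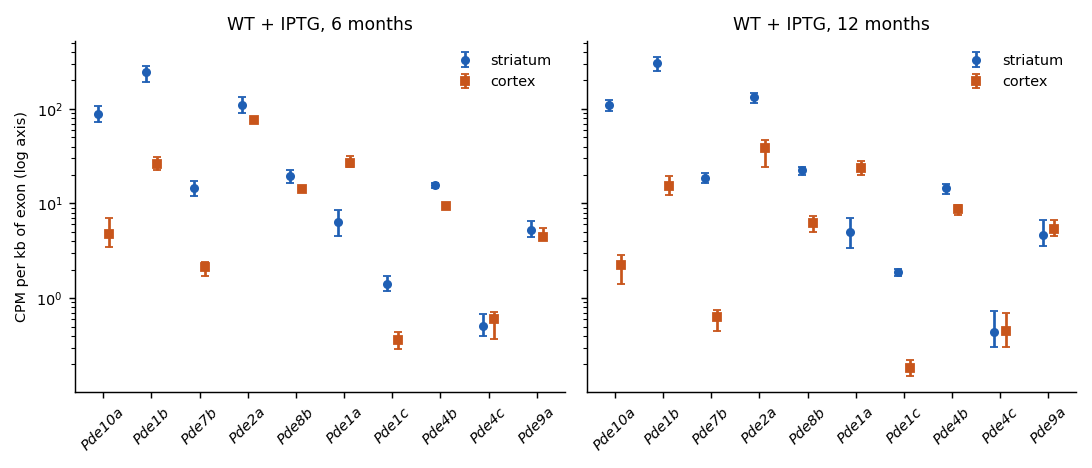
Level of the 10 members in WT + IPTG mice at 6 and 12 months, in CPM per kilobase of exon on a log axis; points are means of 10 mice, bars run from the lowest to the highest library, and marker shape and colour separate striatum from cortex. *Pde10a*, *Pde1b*, *Pde7b* and *Pde1c* stand well above their cortical levels in the striatum, and *Pde1a* stands below its own.

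Between the tissues of WT + IPTG mice, 7 members were higher in the striatum and 1 in the cortex at 6 months, where 28.3% of all genes tested were called. *Pde10a* had 932 to 1368 CPM (median 1097) in the striatum and 44.3 to 90.5 CPM (median 54.1) in the cortex, a log2 ratio of 4.20 (SE 0.130, adjusted p = 4.96e-53). *Pde1b* was higher by 3.22 (SE 0.0674, adjusted p = 6.33e-68), *Pde7b* by 2.74 and *Pde1c* by 1.95 on the log2 scale. Smaller ratios were called for *Pde4b* (0.71), *Pde2a* (0.52) and *Pde8b* (0.45). *Pde1a*, with 27.5 to 51.8 CPM in the striatum and 144.5 to 191 CPM in the cortex, was the member with the higher cortical level (log2 ratio -2.11, adjusted p = 4.65e-31). *Pde9a* (0.23) was under the 20% bound, and *Pde4c* (-0.24) did not pass the test.

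At 12 months the ratios of the striatal genes were larger, at 5.44 for *Pde10a*, 4.15 for *Pde1b*, 4.71 for *Pde7b*, 3.20 for *Pde1c*, 1.64 for *Pde2a* and 1.69 for *Pde8b*, and *Pde4b* was at 0.57; *Pde9a* (-0.37) was called lower in the striatum, as was *Pde1a* (-2.40), and 47.6% of all genes were called. The cortical libraries of this age differed from the striatal ones in how counts depended on transcript length: the slope of log2 CPM on log2 exon length lay between -0.29 and 0.06 (median -0.12) in the cortex and between 0.21 and 0.46 (median 0.38) in the striatum, with no overlap, whereas at 6 months the ranges overlapped (0.09 to 0.48 and 0.17 to 0.42). The part of this slope in the 12-month ratios was not tested.

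The first comparison, LacQ140 against WT + IPTG, asks what m*Htt* expression changed with IPTG given to both groups. In the 12-month striatum, 5 of the 10 members fell and 1 rose, where 9.44% of all 35386 genes tested were called in either direction. The median log2 fold change of the members was -0.24, beside 0.00 over all genes tested. The libraries of LacQ140 and WT + IPTG mice did not overlap for 4 members, *Pde10a*, *Pde1b*, *Pde2a* and *Pde7b*, and for 2.07% of all genes.

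Among the enzymes that hydrolyse both nucleotides, *Pde10a* changed most. WT + IPTG mice had 1213 to 1586 CPM (median 1378) and LacQ140 mice 548 to 792 CPM (median 617), so that every LacQ140 mouse lay below every control. The LacQ140 mean, 656 ± 98.3 CPM (SD, n = 9), was 46.7% of the WT + IPTG mean of 1403 ± 134 CPM (n = 10), and edgeR gave a log2 difference of -1.10 with an SE of 0.089 (adjusted p = 4.36e-16).

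*Pde1b*, the calmodulin-activated enzyme most abundant in these samples, had 1359 to 1923 CPM (median 1620) in WT + IPTG mice and 934 to 1101 CPM (median 1018) in LacQ140 mice. The groups stood apart, and the fold change was -0.68 on the log2 scale (SE 0.053, adjusted p = 1.16e-16), to 62.4% of the control mean. *Pde2a* had 714 to 910 CPM (median 822) in WT + IPTG mice and 568.4 to 689 CPM (median 608) in LacQ140 mice, again without overlap. It fell by 0.43 on the log2 scale (SE 0.045) with an adjusted p of 1.09e-11.

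The related *Pde1a* was the member that rose. WT + IPTG mice had 20.4 to 41.8 CPM (median 29.6) and LacQ140 mice 27.1 to 61.0 CPM (median 36.9), with broad overlap, and the log2 difference was 0.36 with an SE of 0.122 (adjusted p = 0.0338). LacQ140 mouse M2 had the highest *Pde1a* value, 61.0 CPM, and also the most cortical projection neuron markers, 385 CPM summed, against 22.2 to 106 CPM in WT + IPTG mice; without it the fold change was 0.25 and the adjusted p 0.188. The call was also lost without any 1 of LacQ140 M3 or M5, or of WT + IPTG F2, F3, F4, M1 or M2, with adjusted p-values between 0.0503 and 0.0858. *Pde1c* ran from 34.5 to 40.9 CPM in WT + IPTG mice and from 27.1 to 40.96 CPM in LacQ140 mice, and its log2 fold change of -0.18 (adjusted p = 0.0225) was under the 20% bound.

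Of the cAMP-specific enzymes, *Pde7b* had 204 to 260 CPM (median 223.8) in WT + IPTG mice and 125.3 to 191 CPM (median 162) in LacQ140 mice. No LacQ140 mouse reached the lowest control, and edgeR put the log2 difference at -0.55 with an SE of 0.081 (adjusted p = 2.05e-07). *Pde8b* had 118 to 142 CPM (median 134) in WT + IPTG mice and 96.4 to 118 CPM (median 106) in LacQ140 mice, the highest of which just passed the lowest control. It fell by 0.30 on the log2 scale, with an SE of 0.048 (adjusted p = 1.85e-06). *Pde4b* (153 ± 10.5 and 139 ± 13.9 CPM, log2 fold change -0.14, adjusted p = 0.0671) and *Pde4c* (2.44 ± 0.718 and 2.15 ± 0.557 CPM, -0.18, adjusted p = 0.545) did not pass the test, nor did the cGMP-specific *Pde9a* (16.5 ± 3.81 and 17.5 ± 1.99 CPM, 0.09, adjusted p = 0.640).

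**Figure D2:**
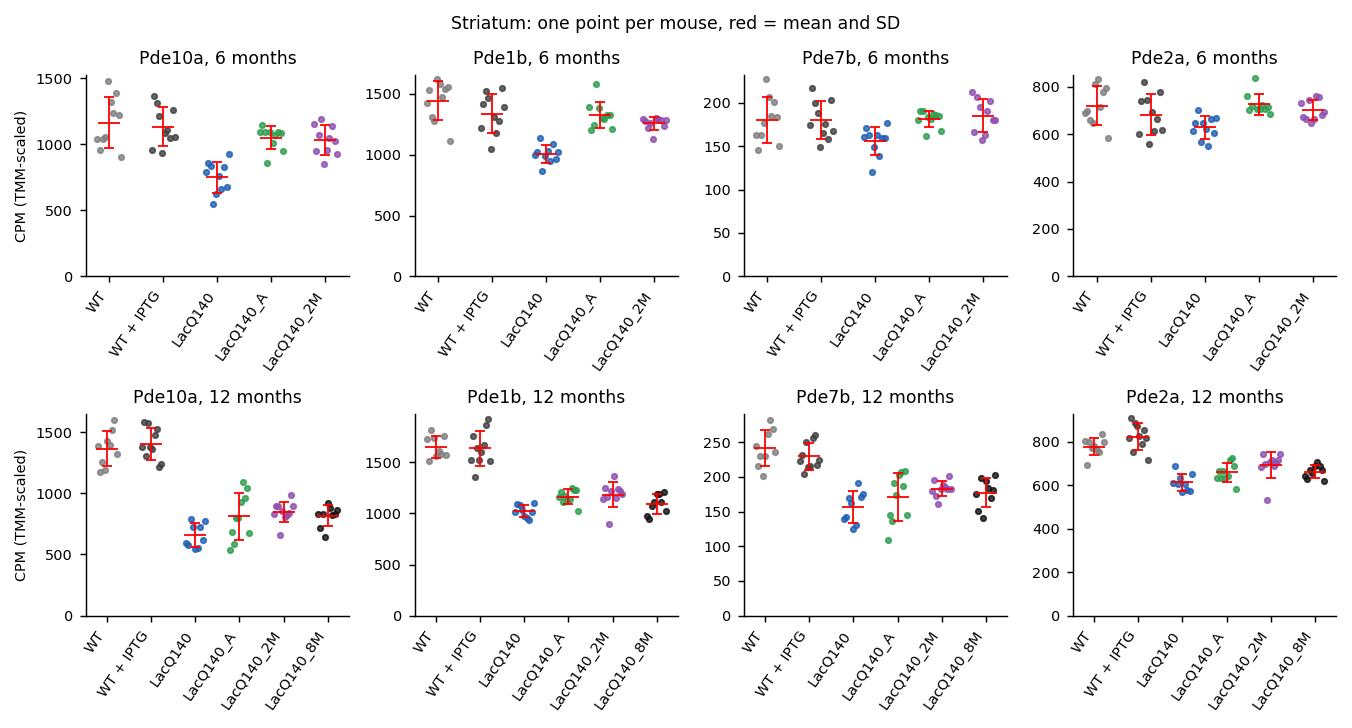
CPM of *Pde10a*, *Pde1b*, *Pde7b* and *Pde2a* in each striatal library by group at 6 and 12 months; each point is 1 mouse, and the red mark and bar give the group mean and SD. At 12 months the LacQ140 mice of all 4 genes sit below every WT + IPTG mouse, and the means of the lowered groups lie between those of LacQ140 and wild-type mice.

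At 6 months, 3 members fell in the LacQ140 striatum and none rose, where 7.93% of all 35808 genes were called; the members' median log2 fold change was -0.09, beside 0.00 over all genes. *Pde10a* had 932 to 1368 CPM (median 1097) in WT + IPTG mice and 548 to 924 CPM (median 774) in LacQ140 mice, the only member whose groups did not overlap, as held for 1.15% of all genes. It fell by 0.60 on the log2 scale with an SE of 0.078 (adjusted p = 6.58e-08). *Pde1b* had 1049 to 1549 CPM (median 1350) in WT + IPTG mice and 865 to 1139 CPM (median 1008) in LacQ140 mice. The ranges overlapped and the log2 difference was -0.41 with an SE of 0.056 (adjusted p = 1.74e-07).

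*Pde4c*, a cAMP-specific enzyme and the member with the lowest striatal level, had 2.22 to 3.80 CPM in WT + IPTG mice and 1.74 to 2.69 CPM with the mutation, a log2 difference of -0.38 (adjusted p = 0.0129), and was not called without the libraries with high cortical markers (-0.36, adjusted p = 0.0635). In untreated WT mice it had 1.41 to 2.41 CPM, and it rose with IPTG alone at this age. *Pde7b* (180 ± 21.7 and 156 ± 16.4 CPM, log2 fold change -0.21, adjusted p = 0.0331) was under the bound. For the other 6 members the log2 fold changes lay between -0.12 (*Pde2a*, adjusted p = 0.185) and 0.15 (*Pde1a*, adjusted p = 0.536), and none passed the test.

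The change in LacQ140 striatum differed between the ages for 3 members, all more negative at 12 months: *Pde10a* by -0.51 on the log2 scale (adjusted p = 0.00778), *Pde2a* by -0.31 (adjusted p = 0.00651) and *Pde1b* by -0.27 (adjusted p = 0.0402), where 2.07% of all genes were called. *Pde7b* (-0.35, adjusted p = 0.0590) and *Pde8b* (-0.24, adjusted p = 0.0635) did not pass this test, but *Pde7b* passed with the filterByExpr filter (-0.35, adjusted p = 0.0377) and with transcript length slope as a covariate (-0.33, adjusted p = 0.00333). The difference for *Pde1b* was -0.24 with an adjusted p of 0.125 once the striatal libraries with high cortical markers were left out.

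Because the members fell by different amounts, the make-up of the family moved. *Pde10a* was 16.6% ± 1.20 (SD, n = 10) of the CPM per kilobase of all 24 genes in 12-month WT + IPTG striatum and 11.5% ± 1.39 (n = 9) in LacQ140 striatum, without overlap (13.6 to 17.9% and 9.75 to 13.4%). *Pde2a* was 20.4% ± 1.04 and 22.6% ± 0.943, and *Pde1b* 46.05% ± 2.35 and 42.8% ± 1.09. The sum over the 24 genes was 658 ± 45.4 CPM per kilobase in WT + IPTG mice and 442 ± 21.8 in LacQ140 mice. These shares are a description and carry no test.

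**Figure D3:**
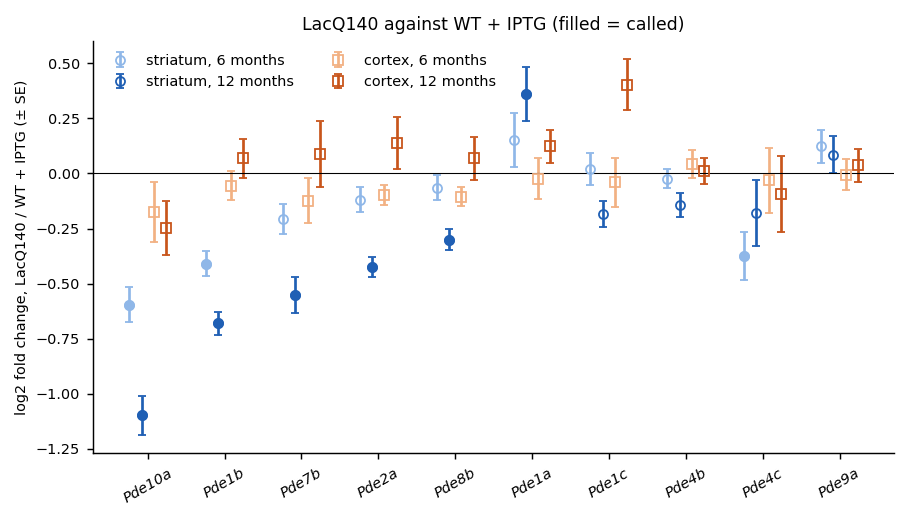
Log2 fold change of LacQ140 against WT + IPTG for the 10 members by tissue and age, with bars of 1 SE; filled symbols passed an adjusted p of 0.05 and a change of 20%. Filled symbols occur only in the striatum: *Pde10a*, *Pde1b* and *Pde4c* at 6 months, and *Pde10a*, *Pde1b*, *Pde7b*, *Pde2a*, *Pde8b* and *Pde1a* at 12 months.

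In the cortex, 0 of the 10 members were called in LacQ140 against WT + IPTG mice by edgeR at 6 months (2 had an unadjusted p under 0.05, and DESeq2 called 0), where 0.881% of all genes were called. At 12 months again 0 were called (2 with an unadjusted p under 0.05, 0 by DESeq2), with 0.0899% of all genes. By edgeR an unadjusted p under 0.05 was found for 3578 of 35987 genes tested at 6 months and 2995 of 34493 at 12 months. *Pde10a* ran from 18.1 to 36.7 CPM (median 30.7) in 12-month WT + IPTG cortex and from 20.1 to 27.4 CPM (median 25.3) in LacQ140 cortex, a log2 fold change of -0.25 (95% interval -0.49 to -0.01, adjusted p = 0.566). *Pde1c* had 2.99 to 4.48 CPM (median 3.64) and 3.51 to 5.83 CPM (median 4.81) there, a log2 fold change of 0.40 (adjusted p = 0.180).

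A test of the difference between tissues gave a more negative LacQ140 change in striatum than in cortex for 1 member at 6 months, *Pde1b* (-0.37, adjusted p = 0.0175), with 0.653% of all genes called. The 6-month difference for *Pde10a* was of like size but did not pass (-0.43, SE 0.162, adjusted p = 0.320). At 12 months 6 members passed, with 2.53% of all genes called: *Pde10a* (-0.87, adjusted p = 4.90e-05), *Pde1b* (-0.77, adjusted p = 5.61e-08), *Pde7b* (-0.67, adjusted p = 0.0129), *Pde1c* (-0.61, adjusted p = 0.000387), *Pde2a* (-0.59, adjusted p = 0.00333) and *Pde8b* (-0.39, adjusted p = 0.0366).

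Other striatal genes moved with the members. Of 10 markers of striatal projection neurons, 9 fell in LacQ140 striatum at both ages (median log2 fold change -0.37 at 6 months and -0.84 at 12 months, with 7.93% and 9.44% of all genes called), and *Tac1*, which encodes substance P, was at 0.14 and -0.10 and not called. Their summed level at 12 months was 7557 to 10884 CPM (median 9254) in WT + IPTG mice and 4536 to 5469 CPM (median 5179) in LacQ140 mice, without overlap. None of 5 general neuronal markers reached a change of 20% at either age, though *Snap25* at 6 months (-0.17) and *Rbfox3* at 12 months (-0.18) had adjusted p-values of 0.00783 and 0.00369; their summed levels at 12 months were 3784 to 4146 CPM in WT + IPTG and 3476 to 3926 CPM in LacQ140 mice. The part of these markers in the members' changes was not tested. In bulk tissue, fewer cells of a type and less RNA per cell cannot be told apart.

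For cortical projection neurons, 4 of 8 markers rose at 12 months, *Nrn1* and *Cux2* among them, with summed levels of 22.2 to 106 CPM in WT + IPTG and 38.6 to 385 CPM in LacQ140 mice. The value of 385 CPM was that of LacQ140 mouse M2, and the next highest LacQ140 mouse, M5, had 66.8 CPM. At 6 months *Cux2* rose and *Fezf2* and *Neurod6* fell. In the other lists every marker called fell: at 6 and 12 months, 3 and 2 of 6 for oligodendrocytes, 4 and 1 of 6 for microglia, 1 and 1 of 6 for astrocytes, 0 and 2 of 6 for endothelial cells and 1 and 0 of 7 for interneurons. Of all genes tested, 7.93% and 9.44% were called in either direction at these ages. Without the libraries with high cortical markers, *Pde10a* (-1.07), *Pde1b* (-0.68), *Pde7b* (-0.54), *Pde2a* (-0.42) and *Pde8b* (-0.28) were still called at 12 months and *Pde10a* (-0.64) and *Pde1b* (-0.45) at 6 months. *Pde1a* at 12 months was not (0.26, adjusted p = 0.170).

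IPTG itself was compared in wild-type mice, WT + IPTG against WT. *Pde4c* was the 1 member called at 6 months, and it rose in both tissues. In the striatum it had 1.41 to 2.41 CPM (median 2.02) in WT mice and 2.22 to 3.80 CPM (median 2.80) in WT + IPTG mice, or 0.53 higher on the log2 scale (SE 0.110; adjusted p = 0.00637), where 0.584% of all genes were called. In the cortex the values were 1.30 to 2.93 CPM (median 2.06) and 2.08 to 3.99 CPM (median 3.39), 0.69 higher on that scale with an SE of 0.155 (adjusted p = 0.0183), with 0.609% of all genes called. The striatal call did not hold without the libraries with high cortical markers (0.53, adjusted p = 0.0623).

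At 12 months 0 members were called for IPTG by edgeR in striatum (1 with an unadjusted p under 0.05, 0 by DESeq2, 0.218% of all genes) or in cortex (1 with an unadjusted p under 0.05, 0 by DESeq2, 0% of all genes, with 15 called by DESeq2). By edgeR an unadjusted p under 0.05 was found for 4039 of 35386 genes tested in striatum and 2001 of 34493 in cortex. *Pde4c* was at -0.05 in the striatum and -0.38 in the cortex (adjusted p = 0.736). For *Pde10a*, the IPTG difference in wild-type striatum was -0.04 (95% interval -0.19 to 0.11) at 6 months and 0.04 (-0.13 to 0.21) at 12 months.

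The lowered groups were next compared with LacQ140 mice, which asks how far the transcripts differed when m*Htt* had been repressed throughout life or from a later age. In the 6-month striatum 2 members, *Pde10a* and *Pde1b*, rose in each lowered group, with 1.88% of all genes called for LacQ140_A and 1.26% for LacQ140_2M. LacQ140_A mice had 855 to 1145 CPM of *Pde10a* (median 1088) and LacQ140_2M mice 853 to 1190 CPM (median 1038), against 548 to 924 CPM in LacQ140 mice. The ranges overlapped at their ends, and the log2 fold changes were 0.48 (SE 0.078, adjusted p = 2.24e-05) and 0.46 (SE 0.078, adjusted p = 0.000123).

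For *Pde1b*, LacQ140_A mice had 1204 to 1579 CPM (median 1312), all above the 865 to 1139 CPM of LacQ140 mice, and LacQ140_2M mice had 1126 to 1302 CPM (median 1278). The log2 fold changes were 0.40 (adjusted p = 1.35e-06) and 0.32 (adjusted p = 0.000220). *Pde2a* in LacQ140_A (0.21, adjusted p = 0.0260) and *Pde7b* in LacQ140_2M mice (0.25, adjusted p = 0.0361) were under the 20% bound. *Pde4c*, which was lower in LacQ140 than in WT + IPTG mice, was at -0.20 and 0.13 and did not pass.

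Set beside WT mice, 0 members were called in LacQ140_A striatum at 6 months by edgeR (2 with an unadjusted p under 0.05, 0 by DESeq2, 0.91% of all genes) and 0 in LacQ140_2M striatum (4 with an unadjusted p under 0.05, 0 by DESeq2, 0.936% of all genes). Of 35808 genes tested, 4485 and 4207 had an unadjusted p under 0.05 by edgeR. *Pde10a* stood at 90.1% of the WT mean in LacQ140_A mice (log2 fold change -0.15, 95% interval -0.30 to 0.00) and at 88.7% in LacQ140_2M mice (-0.17, -0.33 to -0.02). With transcript length slope as a covariate the LacQ140_2M difference was -0.27 and was called (adjusted p = 0.00474). The largest of these differences for *Pde1b* was -0.20 in LacQ140_2M mice (adjusted p = 0.0587). These comparisons share the 10 WT mice, and those with LacQ140 mice share that group.

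**Figure D4:**
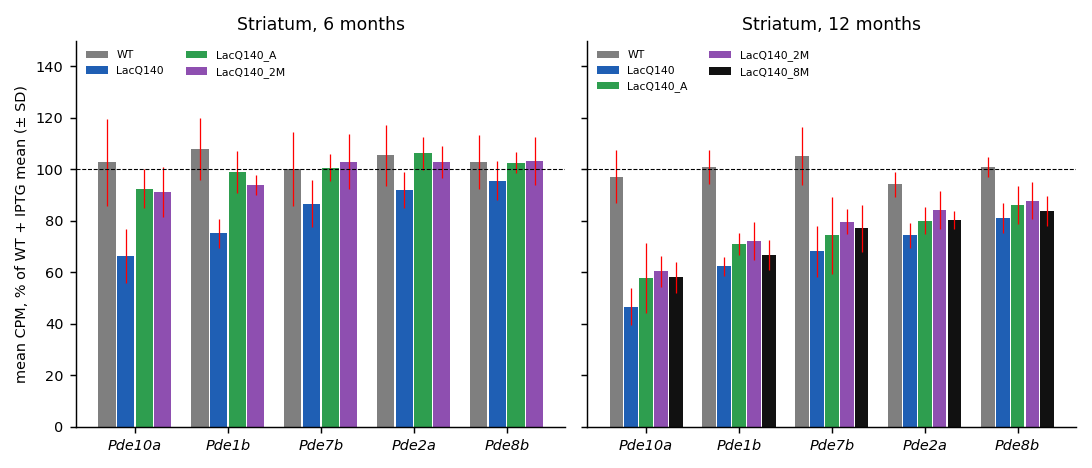
Mean CPM of *Pde10a*, *Pde1b*, *Pde7b*, *Pde2a* and *Pde8b* in striatum as a percentage of the WT + IPTG mean of the same age, by group; error bars are SD over mice and the dashed line marks 100%. *Pde10a* stands at 66.2% in LacQ140 and 92.6% in LacQ140_A mice at 6 months, and at 46.7% and 57.8% at 12 months.

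In the 12-month striatum, *Pde10a* in LacQ140_2M mice was the 1 member called in any lowered group against LacQ140. LacQ140_2M mice had 658 to 986 CPM (median 846) and LacQ140 mice 548 to 792 CPM (median 617), and the log2 difference was 0.37 with an SE of 0.087 (adjusted p = 0.0149), with 0.608% of all genes called. *Pde1b* (0.21, adjusted p = 0.0268) and *Pde2a* (0.18, adjusted p = 0.0304) were under the 20% bound in this group. LacQ140_2M mouse F4 had the lowest value of its group for *Pde10a*, *Pde1b*, *Pde2a*, *Pde7b* and *Pde8b* and 129 CPM of cortical projection neuron markers. Without it, a choice made after the data were seen, the *Pde10a* fold change was 0.41 (adjusted p = 0.00470) and still the 1 call.

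LacQ140_A mice had 537 to 1093 CPM of *Pde10a* (median 799), the widest spread of any striatal group at this age, and LacQ140_8M mice 641 to 917 CPM (median 831). By edgeR 0 members were called in LacQ140_A (5 with an unadjusted p under 0.05, 0 by DESeq2, 0.91% of all genes) and 0 in LacQ140_8M mice (3 with an unadjusted p under 0.05, 0 by DESeq2, 0.00565% of all genes). Of 35386 genes tested, 3688 and 1815 had an unadjusted p under 0.05 by edgeR. The *Pde10a* log2 fold changes were 0.31 (SE 0.087, adjusted p = 0.0596) and 0.31 (SE 0.089, adjusted p = 0.684), with 95% intervals of 0.13 to 0.48 and 0.14 to 0.49. Without the libraries with high cortical markers, among them LacQ140_A F1 with the lowest *Pde10a* of its group, the LacQ140_A difference was 0.37 and was called (adjusted p = 0.00915). LacQ140_8M and LacQ140_2M mice differed in 0 members (2 with an unadjusted p under 0.05, 0 by DESeq2, 0.0933% of all genes), with -0.06 for *Pde10a* (95% interval -0.23 to 0.11) and -0.12 for *Pde1b* (-0.22 to -0.01). Between these 2 groups, 2668 of 35386 genes tested had an unadjusted p under 0.05 by edgeR.

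Against WT mice, the same 3 members, *Pde10a*, *Pde1b* and *Pde7b*, were lower in LacQ140_A and in LacQ140_2M mice at 12 months, with 3.15% and 4.09% of all genes called, and *Pde8b* with them in LacQ140_8M mice, with 7.77%. WT mice had 1174 to 1596 CPM of *Pde10a* (median 1385), above every mouse of the 3 lowered groups. *Pde10a* differed by -0.75 (adjusted p = 1.40e-09), -0.69 (adjusted p = 1.50e-08) and -0.74 (adjusted p = 1.76e-09) in LacQ140_A, LacQ140_2M and LacQ140_8M mice, which had 59.4%, 62.2% and 59.8% of the WT mean.

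*Pde1b* had 1513 to 1820 CPM (median 1608) in WT mice and differed by -0.51, -0.48 and -0.60 in the same order, again with no mouse of a lowered group in the WT range. For *Pde7b* the differences were -0.50, -0.40 and -0.44 (adjusted p = 6.90e-06, 0.000358 and 4.86e-05). *Pde2a* (-0.24, -0.16 and -0.23) had adjusted p-values of 0.000133, 0.0122 and 0.000144 and was under the 20% bound each time, and *Pde8b* was at -0.23, -0.20 and -0.27; the last of these was called, but without the libraries with high cortical markers it was -0.25 and under the bound. *Pde9a* in LacQ140_8M mice was also under the bound (-0.25, adjusted p = 0.0377), and *Pde1a* (0.28, adjusted p = 0.156) was called there when only the groups compared were fitted (adjusted p = 0.0198). These comparisons share the 9 WT mice.

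An interaction between genotype and IPTG, the difference of LacQ140 from LacQ140_A mice less that of WT + IPTG from WT mice, was called for 1 member at 6 months, *Pde10a* (-0.45, SE 0.110, adjusted p = 0.0349), with 0.542% of all genes. It did not pass without the libraries with high cortical markers (-0.44, adjusted p = 0.121) or with mice blocked by label number (-0.45, adjusted p = 0.0621). At 12 months 0 members passed by edgeR (5 with an unadjusted p under 0.05, 0 by DESeq2, 0.777% of all genes), with *Pde10a* at -0.35 (SE 0.123, adjusted p = 0.220). For this interaction, 3442 of 35386 genes tested had an unadjusted p under 0.05 by edgeR at 12 months.

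None of the cortical comparisons of lowered groups called a member by edgeR or DESeq2. At 6 months 0.00834% of all genes were called for LacQ140_A (2 members with an unadjusted p under 0.05) and 0% for LacQ140_2M (1 member, and 7 genes called by DESeq2). Of 35987 genes tested, 2690 and 3498 had an unadjusted p under 0.05 by edgeR. At 12 months the shares called were 0.0435% for LacQ140_A (2 members), 0.0841% for LacQ140_2M (0 members) and 0% for LacQ140_8M (0 members, and 0 genes called by DESeq2). Of 34493 genes tested, 4546, 1902 and 976 had an unadjusted p under 0.05 by edgeR. The members' log2 fold changes in these 5 comparisons lay between -0.26 and 0.34.

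The rest of the cyclic nucleotide pathway was read in 3 lists set by gene family. Of the 14 other phosphodiesterase genes, 2 rose and 1 fell in LacQ140 striatum at 6 months, where 7.93% of all genes were called: *Pde4d*, a cAMP-specific enzyme (0.39, adjusted p = 6.09e-06), *Pde11a*, which takes both nucleotides (0.58, adjusted p = 0.0204), and the cGMP-specific *Pde5a* (-0.28, adjusted p = 0.0208). *Pde4d* had 25.7 to 31.5 CPM in WT + IPTG and 34.4 to 41.8 CPM in LacQ140 mice, without overlap, but was at 0.11 at 12 months (adjusted p = 0.684). At 12 months, where 9.44% of all genes were called, 1 rose and 1 fell, *Pde6b* (0.89) and *Pde6a* (-1.54), the subunits of the rod photoreceptor enzyme, at most 0.644 CPM in any mouse of these groups.

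Of 21 adenylyl and guanylyl cyclases, 3 fell at 6 months and 5 fell and 1 rose at 12 months (medians -0.08 and -0.14, beside 0.00 over all genes, of which 7.93% and 9.44% were called). *Adcy5*, the main adenylyl cyclase of striatal projection neurons and also 1 of their markers above, fell by 0.35 at 6 months (adjusted p = 0.000589) and by 0.91 at 12 months (adjusted p = 3.05e-21) on the log2 scale. *Adcy4* was at -0.62 and -0.51, *Adcy8* at -0.33 at 6 months, and *Adcy9* (-0.45) and the natriuretic peptide receptor *Npr1* (-0.38) fell at 12 months. *Adcy3* (-0.29) also fell then and *Npr2*, a related receptor guanylyl cyclase, rose (0.34), both named after their values were seen. Against LacQ140 mice, *Adcy5* rose in LacQ140_A (0.47, adjusted p = 2.24e-05) and LacQ140_2M mice (0.30, adjusted p = 0.0176) at 6 months and in LacQ140_2M mice at 12 months (0.34, adjusted p = 7.13e-05).

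Of 24 effectors of cAMP and cGMP, 23 were tested at 12 months, and their calls were near the 9.44% of all genes: 1 rose, *Prkar1b*, a regulatory subunit of protein kinase A (0.33, adjusted p = 4.87e-08), and 1 fell, *Rapgef2*, an exchange factor for Rap1 (-0.38, adjusted p = 3.05e-05).

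Across the 107 striatal libraries, with the mean of each age taken off, the genes whose log2 CPM followed a member most closely were counted among 13281 genes. *Pde10a* was most like *Slmap* (Pearson r = 0.958), *Atp2b1* (0.947) and *Anks1b* (0.940), and *Pde1b* most like *Adora2a* (0.961), *Rgs9* (0.956) and *Ptpn5* (0.944). *Pde2a* was most like *Adcy5* (0.935), *Bcr* (0.935) and *Cacng4* (0.926), *Pde7b* like *Atp2b1* (0.950), *Pde10a* (0.914) and *Strn* (0.909), and *Pde8b* like *Meis2* (0.888), *Diras2* (0.886) and *Snx25* (0.862). The 5 members not called lower in LacQ140 striatum at 12 months had lower best values: *Gabra5* for *Pde1a* (0.800), *Pja2* for *Pde4b* (0.790), *Dgkb* for *Pde1c* (0.744), *2810029C07Rik* for *Pde9a* (0.678) and *Gm21781* for *Pde4c* (0.668).

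Within the family, *Pde10a* and *Pde7b* (r = 0.914), *Pde1b* and *Pde2a* (0.870) and *Pde10a* and *Pde1b* (0.866) varied together most, and *Pde1a* and *Pde1b* were lowest (-0.40). The libraries share their depth, dissection and group, so these values are a description of 107 libraries.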

How the data were processed

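RNA of striatum and cortex was sequenced as paired ends, and the authors deposited an estimated count (also called expected count) per Ensembl gene and library, without normalization, in 1 table per age (build GRCm38 per the submitters' processing notes; aligner and quantifier not given in the sources used here). Of values above 0, 26.8% were not whole, and counts were rounded. Libraries summed to between 33292057 and 68038831 counts (median 43867552).

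Groups were taken from the labels. For each tissue and age, genes with at least 1 count were scaled by TMM and all groups were fitted together in edgeR 4.0.16 (R 4.3.3) with the quasi-likelihood F test. A gene was called at a Benjamini-Hochberg adjusted p under 0.05 over all genes tested and a change of at least 20%. SE is the log2 fold change over the square root of F, and 95% intervals are 1.96 SE. Levels are TMM-scaled CPM, and levels per kilobase use the union of exons in GENCODE vM21. Tissues were compared in 1 fit per age; the 2 tissues of a mouse deviated together from their group means (mean r 0.222 over 50 mice at 6 months and 0.159 over 57 at 12 months), and blocking by mouse left the counts of members called at 8, 1, 9 and 6. The LacQ140 effect was compared between the 2 ages in 1 fit of all striatal libraries, each age labelled as its own batch.

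Alternatives were DESeq2 1.42.0, its size factors, the filter of edgeR's filterByExpr, sex, transcript length slope or label number as terms, no bound on the change, fits of only the groups compared, length by longest transcript and leaving out single libraries. Leaving out striatal libraries with more than 100 CPM of cortical markers, or LacQ140_2M mouse F4 at 12 months, was added after the data were seen. On simulated data, 82% of genes changed by 0.5 on the log2 scale were called for LacQ140 against WT + IPTG in the 6-month striatum (35808 genes) and 89% in the 12-month striatum (35386 genes), and 52% and 68% for the interaction.

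The members and gene lists were chosen with earlier results of these data known. All members are named; of 3 pathway lists, up to 4 called genes per list and comparison with the largest change are named, and for each member up to 3 genes of highest Pearson r. The 6-month result of the effector list and 1 cortical marker are not reported here. Figures were drawn with matplotlib 3.10.9.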

Additional observations from a re-analysis of the deposited data

Results flagged for a closer look

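Of 220 groups of a member in a tissue and age, 13 held a mouse far from the others by Dixon's criterion, which chance gives in about 1 group in 20. In the striatum, LacQ140_2M mouse F4 at 12 months was lowest for *Pde1b* (897 CPM, next 1138) and *Pde2a* (531 CPM, next 686), and LacQ140_2M mouse F5 at 6 months was lowest for *Pde1b* (1126 CPM, next 1223) and *Pde4b* (144 CPM, next 163). LacQ140_A mouse F4 at 6 months was highest for *Pde1b* (1579 CPM, next 1390) and *Pde2a* (837 CPM, next 760), and WT mouse F1 at 12 months was lowest for *Pde1a* (20.8 CPM, next 30.7). In the cortex at 12 months, LacQ140 mouse F1 was highest for *Pde1a* (189 CPM), LacQ140 mouse F5 for *Pde7b* (10.7 CPM), LacQ140_8M mouse M5 for *Pde4c* (4.13 CPM) and LacQ140_8M mouse F5 for *Pde8b* (50.7 CPM). In the cortex at 6 months, WT mouse M4 was lowest for *Pde8b* (74.8 CPM) and WT + IPTG mouse M5 highest for *Pde9a* (19.4 CPM).

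Effects differed between groups in 11 tests of the difference itself. They were the genotype by IPTG interaction of *Pde10a* at 6 months (-0.45 on the log2 scale), and the difference of the LacQ140 change between striatum and cortex for *Pde1b* at 6 months (-0.37) and for *Pde10a* (-0.87), *Pde1b* (-0.77), *Pde7b* (-0.67), *Pde1c* (-0.61), *Pde2a* (-0.59) and *Pde8b* (-0.39) at 12 months. The difference of the striatal change between 12 and 6 months was -0.51 for *Pde10a*, -0.31 for *Pde2a* and -0.27 for *Pde1b*, and age cannot be told apart from the batch given in the labels. *Pde1c* passed the test of tissues at 12 months with changes of -0.18 in striatum and 0.40 in cortex, neither of which was called. The tests of tissues were not run with transcript length slope as a covariate.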

How the results depend on the processing

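Outside the leave-one-out fits, 2361 values kept their direction and side of the threshold, 25 passed it newly, 7 no longer passed and 47 changed sign. Leaving out each LacQ140 or WT + IPTG striatal library left 3 members called at 6 months and 5 to 6 at 12 months. The cause of the changes below was not tested.

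For the interaction at 6 months (1 member called), DESeq2 and the length slope gave 2, and the replicate block and leaving out libraries with high cortical markers gave 0. Leaving those libraries out gave 0 in place of 1 for IPTG in the 6-month striatum. For LacQ140_A against LacQ140 at 12 months (0 called), filterByExpr, sex, the length slope and leaving those libraries out each gave 1, *Pde10a*. The length slope gave 1 in place of 0 for LacQ140_2M against WT at 6 months (*Pde10a*, -0.27) and for the interaction at 12 months (*Pde10a*, -0.31). Without a bound on the change, the 12-month counts were 3 in place of 1 for LacQ140_2M against LacQ140, 6 in place of 3 for LacQ140_A against WT and 5 in place of 3 for LacQ140_2M against WT. Over all 35386 genes tested, the counts in the same order were 272 in place of 215, 1716 in place of 1116 and 2203 in place of 1446.

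Not every pair of mice with the same label number deviated together (mean r 0.107 in the 6-month striatum with 6 of 10 pairs over 0.1, 0.0065 in the 12-month striatum with 3 of 9, -0.00087 and 0.0026 in the cortex), so the number was not read as a pairing. The replicate block gave -0.45 for the *Pde10a* interaction at 6 months (adjusted p = 0.0621) and -0.00066 for *Pde2a* in LacQ140_2M against LacQ140 cortex at 6 months, and moved no other count of members by over 1.5 times.

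The values that changed sign were small and none had been called. For *Pde7b* with IPTG in the 6-month striatum they were 0.0024 with filterByExpr, 0.0022 with either use of DESeq2, 0.0070 with only the groups compared and 0.022 without high cortical markers. For *Pde8b* in LacQ140_A against WT at 6 months they were 0.00071, 0.00016 with either use of DESeq2, and 0.0020 with only the groups compared. For *Pde4c* in LacQ140_8M against LacQ140_2M they were 0.0021 with DESeq2's size factors, 0.0058 with DESeq2, 0.0014 with only the groups compared, 0.056 without high cortical markers, 0.026 without LacQ140_2M F4 and 0.0010 with the length slope. *Pde9a* in 6-month LacQ140 cortex was 0.0035 with only the groups compared, and *Pde2a* in 6-month LacQ140_2M cortex was -0.00098 with sex. *Pde1c* in 6-month LacQ140 striatum was -0.0053 without high cortical markers and ran from -0.0064 to 0.056 over single libraries left out.

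Without high cortical markers, 6-month values against WT were -0.0089 (*Pde2a*, LacQ140_A), -0.021 (*Pde7b*, LacQ140_A) and -0.015 (*Pde8b*, LacQ140_2M), and 12-month values against LacQ140 were 0.031 (*Pde4b*, LacQ140_A) and 0.035 (*Pde1a*, LacQ140_2M). With the length slope in the 6-month striatum, *Pde9a* was 0.033 in LacQ140_2M against LacQ140 and -0.0015 in the interaction, *Pde2a* -0.0067 and *Pde7b* -0.031 in LacQ140_A against WT, and *Pde7b* -0.044 and *Pde8b* -0.040 in LacQ140_2M against WT. In the 12-month striatum it gave -0.051 for *Pde10a* and 0.0044 for *Pde1b* with IPTG and 0.021 for *Pde4b* in LacQ140_A against LacQ140. In the 6-month cortex it gave 0.0010 for *Pde1b* and 0.042 for *Pde7b* with IPTG, 0.025 for *Pde1a* in LacQ140 against WT + IPTG, -0.012 for *Pde4b* in LacQ140_A and -0.0018 for *Pde2a* in LacQ140_2M. In the 12-month cortex it gave -0.012 for *Pde1b*, -0.058 for *Pde7b* and -0.029 for *Pde8b* in LacQ140 against WT + IPTG. Against LacQ140 there it gave 0.094 for *Pde2a*, -0.0077 for *Pde4b*, 0.091 for *Pde7b* and 0.0080 for *Pde8b* in LacQ140_A, and 0.051 for *Pde1b*, 0.026 for *Pde1c* and 0.015 for *Pde8b* in LacQ140_2M.

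For LacQ140_8M against LacQ140 in the striatum edgeR called 2 genes of all tested (1815 at an unadjusted p under 0.05, and 1 by DESeq2).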
